A study of Mus musculus with 16 samples.

Results

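The comparison described here set P19CL6 cells kept for 6 days in medium with 1% DMSO against growing P19CL6 cells that had never received DMSO. It rested on 5 of the 16 arrays of the series, chosen by their titles: 2 cultures at day 6, replicates B and C, and 3 growth cultures, replicates A, B and C. P19CL6 is a cardiogenic line of mouse embryonal carcinoma cells, so all groups share 1 genetic background and no culture is embryonic tissue. Growth cells were passaged every 48 h in alpha-MEM with serum, and the DMSO medium was likewise renewed every 48 h. The other groups were cultures at days 4, 8, 10 and 12 of DMSO, of which days 4 and 8 are used below as neighbours in time. No culture of the same age without DMSO was analysed here, so DMSO and time without passage cannot be told apart. The series text calls the samples of a condition independent, and how far apart the cultures were started is not given in the sources used here.

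Embryonal carcinoma cells resemble the pluripotent epiblast, an epithelium held together by E-cadherin. In the embryo such cells pass through the primitive streak, lose their epithelial junctions under repressors of the Snail family, and move out as mesoderm. Lateral plate mesoderm then forms heart progenitors, which express factors such as Isl1, Hand1, Gata4 and Tbx20 before they build sarcomeres. DMSO starts a similar series of steps in P19CL6 cells and ends in beating cardiomyocytes.

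Values are log2 intensities, so a difference of 1 is a doubling of intensity. A gene was called higher or lower at a limma adjusted p under 0.05 and a difference of at least 1 log2, over 10802 tested genes of the 18193 named on the array. Values under 4 were treated as dim, that is, not distinguished from background. Where all arrays of a group were dim, a fold is given as "at least", with the dim group set to 4. Where only some arrays of a group were dim, the fold rests on the values as listed. The 5 arrays were alike in overall intensity, with medians of 3.16 to 3.21 and 39.6 to 40.8% of probe sets above 4. The lowest correlation between arrays of a group was 0.978 in growth and 0.992 at day 6, against 0.856 to 0.872 between day 6 and growth arrays. The mean of the 3 probe sets for 18S ribosomal RNA was higher on the day 6 arrays, at 6.02 and 6.62 against 4.91 to 5.66, and its part in the results was not tested. The 3′ minus 5′ difference of the Actb probe sets was 0.87 to 0.96 in growth and 0.68 to 0.79 at day 6.

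At day 6, 2898 of the 10802 tested genes were called, which is 26.8% of them. Of these, 1508 were higher (14.0%) and 1390 lower (12.9%) than in growth cells. The median difference over all tested genes was 0.0038 log2. With values under 4 set to 4, the arrays of the groups did not overlap for 2767 of the called genes (95.5%). A call already requires a difference between the groups, so this share is no separate support for the calls. The same share over all tested genes is not given here. Changes of at least 4-fold were found for 567 higher and 442 lower genes, and of at least 16-fold for 134 and 73. The labels give whole cultures, in which a change in the share of a cell type and a change in RNA per cell cannot be told apart.

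**Figure D1:**
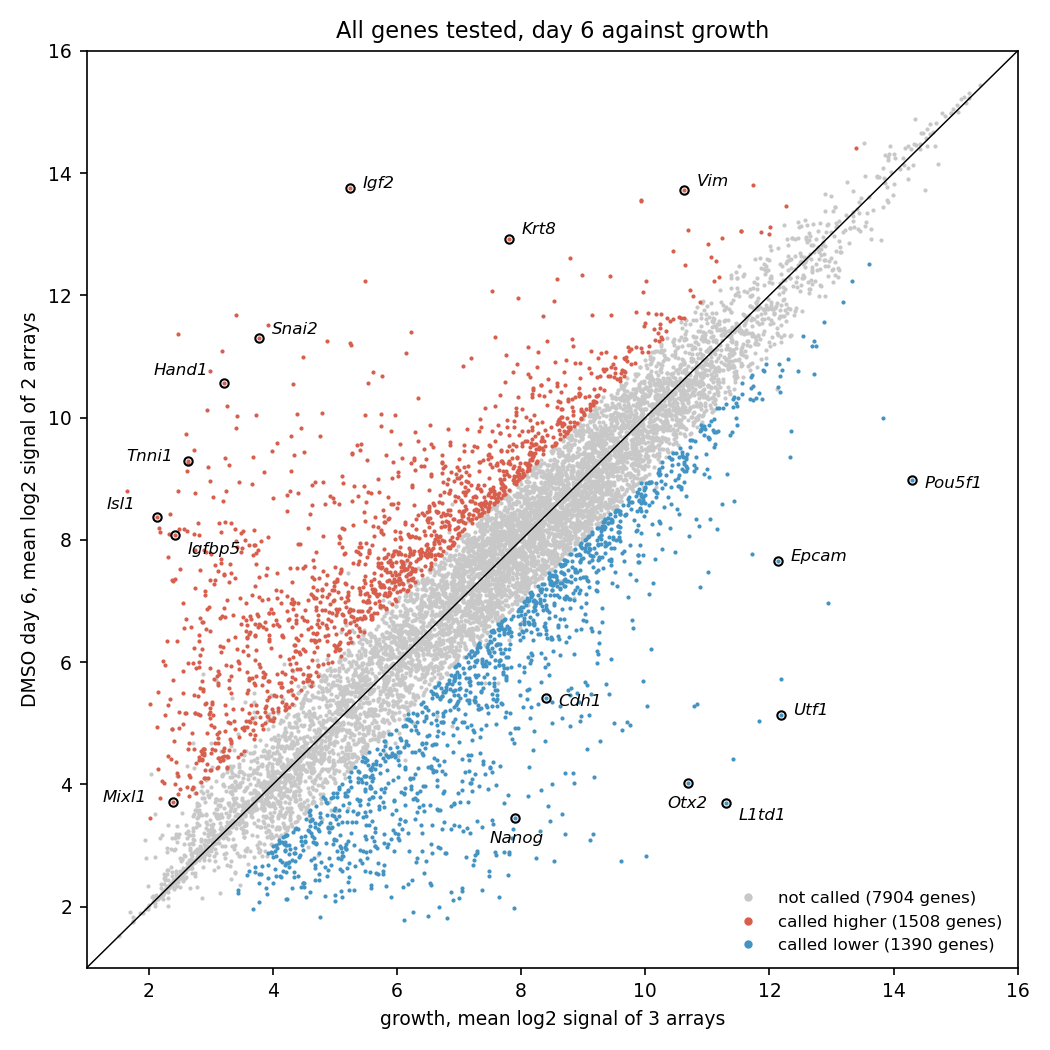
Mean log2 intensity of each tested gene in growth cells (x axis, n = 3) and at day 6 of DMSO (y axis, n = 2), with genes called higher in red, genes called lower in blue, other genes in grey and a diagonal of equal values. The 1508 higher and 1390 lower genes lie on either side of the diagonal, with Igf2, Snai2, Hand1 and Krt8 among the named genes far above it and Pou5f1, Utf1, Otx2 and L1td1 among those far below it.

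Igf2, Snai2, Hand1 and Isl1, the genes that mark this stage in the design of the comparison, were all strongly raised. They were named with these data in view, so their rise is no independent check of the label. Igf2, a growth factor of embryonic mesoderm, lay at 4.98, 5.70 and 5.05 on the growth arrays and at 13.66 and 13.87 on the day 6 arrays. Snai2, a zinc finger repressor of epithelial genes, lay at 3.72, 3.67 and 3.95 in growth and at 11.29 and 11.31 at day 6. The day 6 arrays were far above every growth array for both genes. Hand1, a basic helix-loop-helix factor of lateral plate and heart, lay at 3.24, 3.18 and 3.24 against 10.28 and 10.85. Isl1, a LIM homeobox factor of the second heart field, lay at 1.95, 2.50 and 1.95 against 8.50 and 8.24. For Snai2, Hand1 and Isl1 the growth arrays were all dim, and none overlapped with day 6. Igf2 rose 367-fold (limma adjusted p = 1.93e-07), Snai2 at least 157-fold (8.91e-10), Hand1 at least 94.8-fold (7.05e-06) and Isl1 at least 20.6-fold (1.32e-06).

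The same genes were also compared with day 4, where 662 genes were called (6.13%), 380 higher (3.52%) and 282 lower (2.61%) at day 6. Igf2 lay at 11.94, 8.63 and 9.99 on the day 4 arrays, so replicate A was nearer to day 6 than replicates B and C. Snai2 lay at 5.94, 5.40 and 5.49 and rose 51.5-fold from day 4 to day 6 (limma adjusted p = 1.07e-07). Hand1 lay at 7.10, 4.05 and 7.20, with replicate B close to the dim range, and rose 21.9-fold (0.00266). Isl1 lay at 5.67, 3.59 and 5.65 and rose 10.5-fold, while Igf2 rose 11.9-fold (0.00247). With only the arrays of these days fitted, the rises from day 4 of Hand1 (adjusted p = 0.0887), Isl1 (0.0685) and Igf2 (0.114) did not pass the test. That fit also lost the day 4 to day 6 calls of Krt8, Krt18, Tbx6, Spry4, Unc5c, Pou5f1, Utf1, Tdgf1, Bmp5, Smad6 and Hoxc4 (0.0628 to 0.221). The day 4 arrays also differed over all tested genes. The correlation with the day 6 arrays was 0.964 to 0.968 for day 4 replicate A but 0.938 to 0.945 for replicates B and C. Without day 4 replicate A, 799 genes were called between the days, and with only 1 day 6 array 383 (without replicate B) or 309 (without replicate C).

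Across the 6 group means of the time course, the genes most like the mean of the 4 markers were Capn6 (Pearson r = 0.998), Magi3, Kifc3, Ahnak and Nhsl2 (0.993), which is a description of 6 points. Capn6, a calpain without protease activity, lay at 4.23, 4.36 and 4.38 in growth and at 10.52 and 10.59 at day 6. Ahnak, a giant scaffold protein beneath the plasma membrane, lay at 3.77, 2.66 and 3.77 against 11.54 and 11.81. Bmp5, Eef2k, Rgl1, Smad2 and Hyi followed with r of 0.988 to 0.992, although by probe sets not prone to bind related sequences Eef2k differed from growth by only 0.71 log2. Kifc3 was a small change beside the others and lost its call without day 6 replicate C (adjusted p = 0.0529) and, by its size, without growth replicate B.

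**Figure D2:**
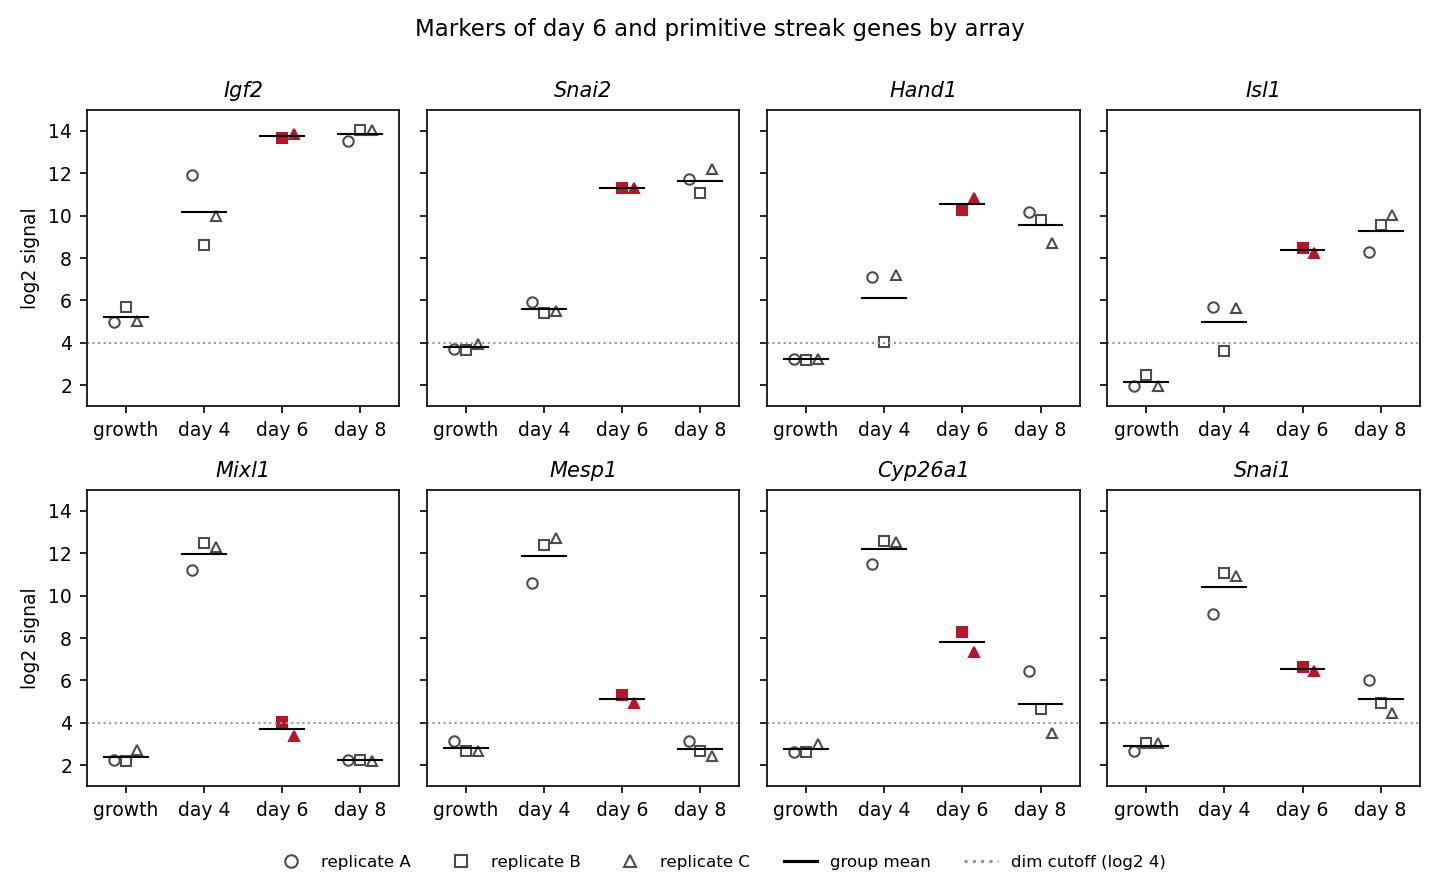
Log2 intensity on each array (points) in growth cells and at days 4, 6 and 8 of DMSO for the markers Igf2, Snai2, Hand1 and Isl1 and for genes of the primitive streak, with a bar for the group mean, day 6 in red and a dotted line at 4, below which values are dim. The markers are at or near their highest at day 6, where Mixl1 and Mesp1 have dropped from their day 4 level but Cyp26a1 has not returned to growth.

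Genes of the primitive streak were lower at day 6 than at day 4, but not all had gone. Of 25 tested members of that list, 17 were lower than at day 4 and 0 higher, with a median difference of -3.77 log2 (23 lower and 0 higher at an unadjusted limma p under 0.05). Against growth cells 11 of the 25 were still higher and 4 lower, with a median of 1.21. Mixl1, a homeobox factor of the streak, lay at 11.20, 12.48 and 12.28 at day 4 and at 4.06 and 3.38 at day 6, 308-fold lower (limma adjusted p = 5.23e-09). Mesp1, the factor of the earliest cardiac mesoderm, lay at 10.60, 12.38 and 12.71 at day 4 and at 5.32 and 4.94 at day 6, 109-fold lower (8.97e-07). Both day 6 arrays were below all day 4 arrays for each gene. Lhx1 fell 51.9-fold from day 4, Eomes 36.1-fold and Sp5 32.5-fold, and Dll3 and Tbx6, of presomitic mesoderm, fell at least 34.2-fold and at least 29.4-fold. Tbx6 was listed at 6.47 on day 4 replicate A against 10.09 and 10.07 on the other arrays of that day.

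Of 11 streak factors 6 were still higher than growth, and of 14 streak ligands, receptors and other signalling genes 5 were. Cyp26a1, which breaks down retinoic acid, lay at 2.62, 2.60 and 3.02 in growth, at 11.51, 12.57 and 12.55 at day 4 and at 8.29 and 7.37 at day 6. It was thus 20.9-fold below day 4 and still at least 14.2-fold above growth. Aplnr, the apelin receptor of migrating mesoderm, was at least 10.1-fold above growth, at 7.82 and 6.85 on the day 6 arrays. Dkk1, a secreted Wnt inhibitor, was at least 17.0-fold above growth, and its change from day 4 did not pass the test (2.28-fold lower, adjusted p = 0.270). Cdx2, a caudal homeobox factor, lay at 8.05 and 7.56 and was at least 13.9-fold above growth. Pdgfra, a receptor of paraxial and cardiac mesoderm, lay at 7.32 and 7.36, at least 10.1-fold above growth. Mixl1 and Sp5 were still called higher than growth, but their day 6 values were at the dim limit. With values under 4 set to 4 their differences were 0.03 and 0.06 log2. Evx1, another of the 6 factors, had a day 6 mean of 4.47. In that setting it differed from growth by 0.47 log2 and lost its call (limma adjusted p = 0.194). Nodal and Lefty1, a ligand and its antagonist that growing cells express, were 19.3-fold and 127-fold lower than in growth. Eomes was 2.42-fold lower than in growth, a call lost without growth replicate A or either day 6 array (adjusted p 0.0606 to 0.101).

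Pluripotency genes had fallen in most cases. Of 20 tested members 13 were lower and 2 higher than in growth, with a median of -3.44 log2. Pou5f1, the Oct4 gene, lay at 14.12, 14.27 and 14.50 in growth and at 8.86 and 9.11 at day 6, 39.9-fold lower (limma adjusted p = 1.01e-05). Its day 6 values were well below every growth array but remained far above the dim limit. Nanog was dim at day 6, with 3.45 on both arrays against 8.30, 7.44 and 7.94 in growth, at least 14.9-fold lower. Sox2 fell by 2.65 on the log2 scale and lay at 7.97 and 8.48. L1td1, an RNA-binding protein of pluripotent cells, lay at 11.52, 10.95 and 11.44 against 3.64 and 3.75, at least 158-fold lower. Utf1, a chromatin factor of pluripotent cells, fell 133-fold, and Gdf3, a TGF-beta family ligand, at least 35.7-fold. Tdgf1, the Nodal co-receptor Cripto, fell 45.5-fold, and Fgf4 and Eras became dim. Lin28a, an RNA-binding protein, lay at 11.81 and 11.75 against 12.23 to 12.49, and that difference did not pass the test (adjusted p = 0.422). The 2 higher members, Klf4 and Tbx3, are also active outside pluripotent cells. Tbx3 lay at 9.06 and 9.63 at day 6 against 3.16, 3.16 and 3.38. Between day 4 and day 6 only Pou5f1, Utf1 and Tdgf1 of this list were called, all lower, and without 1 array the count lay between 0 and 5.

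**Figure D3:**
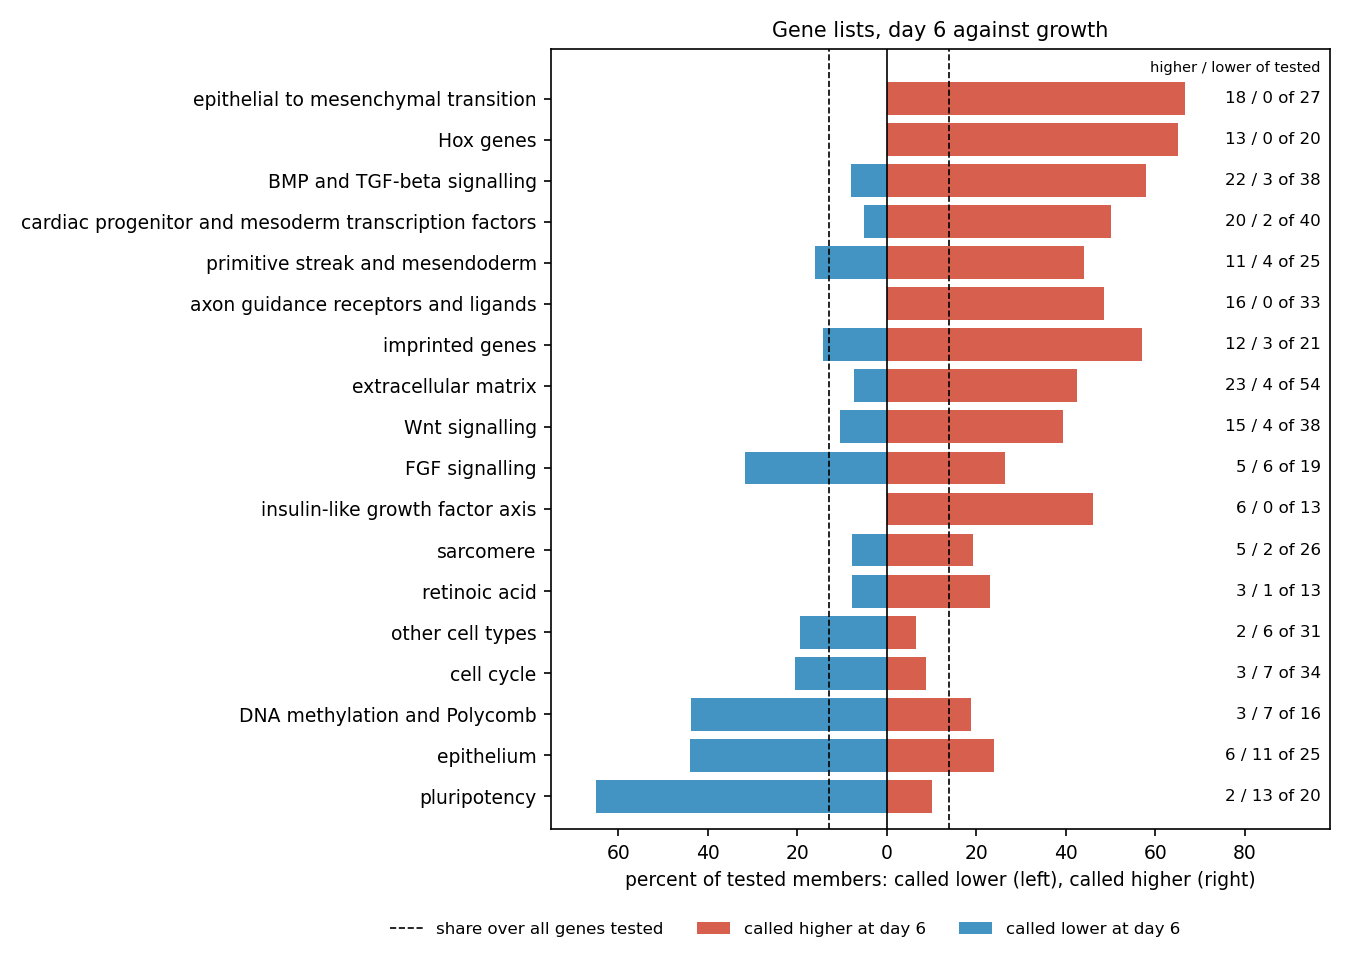
Members of each gene list called higher and lower at day 6 than in growth cells, as a share of the tested members, with the shares over all tested genes (14.0% higher, 12.9% lower) marked by dashed lines. Mesenchymal, BMP and Hox genes lie far to the higher side and pluripotency genes far to the lower side.

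Most genes of the mesenchymal state rose. Of 27 tested genes of the epithelial to mesenchymal transition list, 18 were higher and 0 lower than in growth, with a median of 3.09 log2 against 0.0038 over all genes. At an unadjusted limma p under 0.05, 20 were higher and 0 lower. Among its repressors, Snai1, the family member of the streak, lay at 2.66, 3.04 and 3.07 in growth, at 9.15, 11.08 and 10.94 at day 4 and at 6.64 and 6.45 at day 6. Snai1 was thus at least 5.84-fold above growth but 14.4-fold below day 4 (limma adjusted p = 0.000969), while Snai2 rose over the same days. Twist1, a basic helix-loop-helix factor of mesenchyme, was dim on all 3 growth and all 3 day 4 arrays and lay at 6.49 and 5.97 at day 6, at least 4.70-fold higher than either. Zeb1 was already at 7.20, 7.35 and 7.52 in growth and rose 2.30-fold, to 8.76 and 8.36, but by the mean of its probe sets the difference was 0.68 log2 and was not called.

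The cadherins changed in opposite directions. Cdh11, the cadherin of mesenchyme, lay at 3.04, 2.19 and 2.19 in growth and at 11.43 and 11.30 at day 6, at least 165-fold higher (limma adjusted p = 9.44e-10). Cdh2, N-cadherin, lay at 4.97, 5.05 and 4.36 against 10.15 and 10.01, 39.0-fold higher. Cdh1, E-cadherin, lay at 7.51, 8.76 and 8.94 against 5.14 and 5.69, 7.93-fold lower (0.0047). Cdh11 lay at 11.45, 10.36 and 10.78 at day 4, and its difference from day 6 did not pass the test (1.42-fold, adjusted p = 0.549), whereas Cdh2 was 3.23-fold lower at day 6 than at day 4. That fall of Cdh2 lost its call without day 6 replicate B or C (adjusted p = 0.0778 and 0.124).

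Surface and cytoskeletal members rose with them. Vim, the intermediate filament protein vimentin, lay at 10.33, 10.75 and 10.79 in growth and at 13.65 and 13.79 at day 6, an 8.54-fold rise. Lgals3, the sugar-binding protein galectin-3, rose 194-fold, from 3.65, 3.61 and 4.48, with 2 of the 3 growth arrays dim, to 11.67 and 11.35. Pmp22, a tetraspan membrane protein, rose 108-fold, and Nrp1, a co-receptor for semaphorins and VEGF, at least 108-fold. Cd44, the hyaluronan receptor, was dim in growth and lay at 7.18 and 7.36 at day 6, at least 9.65-fold higher and 8.46-fold above day 4. Pdgfrb rose 13.2-fold over growth and 8.32-fold over day 4. From day 4 to day 6, 9 members of the list were higher and 2, Snai1 and Cdh2, lower. Axl, a receptor tyrosine kinase, was 5.18-fold above day 4 but at 5.92 and 6.30 beside 6.04 to 6.30 in growth.

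Part of the extracellular matrix genes rose. Of 54 tested members 23 were higher and 4 lower than in growth, with a median of 0.99 log2. Without 1 array the lower count ranged from 2 to 5. Fn1, fibronectin, lay at 7.60, 7.51 and 7.46 in growth and at 11.99 and 12.16 at day 6, 23.5-fold higher (limma adjusted p = 2.43e-07). It was lower than at day 4, where it lay at 13.19, 13.46 and 13.37, although that 2.40-fold fall lost its call without day 4 replicate B or C or either day 6 array (adjusted p 0.0893 to 0.231). Genes of the hyaluronan-rich matrix known as cardiac jelly were among the rises. Has2, the hyaluronan synthase of the heart, rose 8.10-fold, to 9.75 and 9.38 from 7.22, 6.20 and 6.21. Vcan, the proteoglycan versican, lay at 3.75, 7.08 and 5.38 in growth and at 9.36 and 9.59 at day 6, 16.8-fold higher, with a wide spread in growth. Hapln1, which links hyaluronan to versican, was dim in growth and at day 4 and lay at 7.04 and 6.44 at day 6, at least 6.69-fold higher.

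The collagens were uneven. Col3a1 and Col1a2, chains of connective tissue collagen, were dim on all growth and day 6 arrays, and Col1a1 reached only 4.30 and 5.05, a call lost without day 6 replicate C (adjusted p = 0.172). Basement membrane collagen Col4a2 rose 3.80-fold, from 6.85, 6.80 and 6.85 to 8.63 and 8.89, and the laminin chain Lama1 rose 9.63-fold. Col5a1 rose 8.52-fold over growth and 4.57-fold over day 4, where the call was lost without day 4 replicate B or C or either day 6 array (adjusted p 0.0541 to 0.166). Loxl1, an enzyme that crosslinks elastin and collagen, rose 7.06-fold. Of the lower members, Timp1, an inhibitor of matrix proteases, fell 9.24-fold, from 8.64, 8.89 and 8.74 to 5.82 and 5.28, and Col2a1, the cartilage collagen, became dim. From day 4 to day 6, 10 members were higher and 2 lower, and the higher count was 4 without day 6 replicate C.

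Epithelial genes split into groups that moved in opposite directions. Of 25 tested members 11 were lower and 6 higher than in growth, with a median of -0.79 log2. The lower members were E-cadherin, tight junction, polarity and protease inhibitor genes, and the splicing regulator Esrp1. The higher members were the desmosome genes Dsp, Dsg2, Dsc2 and Pkp2 and the simple epithelial keratins Krt8 and Krt18, which embryonic heart muscle and mesothelium also use. Because Snail proteins bind E-boxes with the letters CAGGTG, 250 bases before the most upstream RefSeq start of the called members were searched for these letters on both strands, where the other strand reads CACCTG. The following promoters (RefSeq, mouse build GRCm38.p6, 5′ to 3′ on the gene's strand) each hold a match, in capitals, and are shown because the first 3 genes were lower and the last 2 higher at day 6.
Epcam: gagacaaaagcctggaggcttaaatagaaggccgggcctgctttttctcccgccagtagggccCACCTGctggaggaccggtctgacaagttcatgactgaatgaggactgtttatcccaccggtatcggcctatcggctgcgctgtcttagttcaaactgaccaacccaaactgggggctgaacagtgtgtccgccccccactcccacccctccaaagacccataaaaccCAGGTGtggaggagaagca
Cldn6: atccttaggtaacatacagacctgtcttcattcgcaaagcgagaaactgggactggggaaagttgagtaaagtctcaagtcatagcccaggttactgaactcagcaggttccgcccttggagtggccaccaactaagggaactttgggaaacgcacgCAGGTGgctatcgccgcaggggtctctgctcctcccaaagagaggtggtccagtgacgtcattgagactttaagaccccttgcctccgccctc
Crb3: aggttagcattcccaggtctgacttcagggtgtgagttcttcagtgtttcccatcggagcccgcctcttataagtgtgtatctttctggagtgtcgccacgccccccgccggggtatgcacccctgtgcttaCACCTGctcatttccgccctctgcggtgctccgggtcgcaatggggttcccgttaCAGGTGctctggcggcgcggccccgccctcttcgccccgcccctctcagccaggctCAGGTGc
Krt8: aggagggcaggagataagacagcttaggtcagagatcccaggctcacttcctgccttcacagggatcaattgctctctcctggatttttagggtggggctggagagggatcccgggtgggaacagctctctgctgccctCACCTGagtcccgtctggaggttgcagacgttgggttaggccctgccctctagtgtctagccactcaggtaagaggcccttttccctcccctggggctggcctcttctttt
Krt18: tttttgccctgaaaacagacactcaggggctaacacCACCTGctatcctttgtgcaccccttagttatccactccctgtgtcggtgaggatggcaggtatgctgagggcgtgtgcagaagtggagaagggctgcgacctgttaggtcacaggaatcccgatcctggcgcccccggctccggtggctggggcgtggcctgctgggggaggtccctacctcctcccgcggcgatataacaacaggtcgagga

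These stretches lie directly before the start, Epcam at chr17:87635729-87635978 (plus strand), Cldn6 at chr17:23679115-23679364 (plus strand), Crb3 at chr17:57061951-57062200 (plus strand), Krt8 at chr15:102004343-102004592 (minus strand) and Krt18 at chr15:102027966-102028215 (plus strand). The matches of Epcam begin 187 and 19 bases before the start, that of Cldn6 at 93, those of Crb3 at 118, 63 and 7, that of Krt8 at 111 and that of Krt18 at 214. Of the 11 lower members 9 had a promoter in the table, and 5 of the 9 held the letters. Of the 6 higher members 3 had one, and 2 of the 3 held them. Over the whole list 14 of 24 promoters held a match (58.3%), against 17.1% of all 27025 promoters in the table and 14.5% of those of the tested genes. The letters were in 20.9% of the promoters of all called lower genes and 13.9% of those of all called higher genes. A match is a stretch of letters and not a measured site, and the members' numbers are small. The promoters of Cdh1 and Esrp1 were not analysed here.

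The day 4 arrays of the lower members lay near those of day 6. Epcam, an epithelial cell adhesion molecule, lay at 12.22, 12.21 and 11.98 in growth, at 8.03, 8.38 and 8.80 at day 4 and at 7.60 and 7.70 at day 6, 22.4-fold lower (limma adjusted p = 2.35e-05). Cldn6, a tight junction claudin of embryonic epithelium, lay at 5.95, 7.10 and 7.97 against 2.16 and 2.14, at least 8.03-fold lower. Crb3, an apical polarity protein, lay at 6.44, 6.42 and 6.77 against 5.34 and 4.66, 2.92-fold lower. Each of these had day 6 arrays below all growth arrays. Esrp1 was dim on both day 6 arrays and at 5.44, 8.31 and 7.39 in growth, at least 8.26-fold lower. Spint1, an inhibitor of epithelial serine proteases, fell 7.88-fold. Between day 4 and day 6, 5 members of this list were higher and 0 lower, and 6 and 0 at an unadjusted limma p under 0.05.

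Of the 6 higher members 5, all but Dsp, also rose between day 4 and day 6. Krt8 lay at 7.84, 7.53 and 8.04 in growth, at 10.24, 6.83 and 8.13 at day 4 and at 12.91 and 12.94 at day 6. It was 34.9-fold above growth (limma adjusted p = 2.59e-05) and 23.1-fold above day 4 (0.00051). Krt18, its partner filament, lay at 7.69, 7.84 and 8.31 in growth, at 9.26, 4.98 and 7.23 at day 4 and at 11.91 and 12.00 at day 6. It was 16.1-fold above growth and 27.8-fold above day 4. Day 4 replicate A held the highest value of that day for both keratins, and both stayed below day 6. Dsp, desmoplakin, lay at 4.05, 6.01 and 6.52 in growth and at 10.48 and 10.66 at day 6, 33.0-fold higher. Pkp2, a plakophilin of heart desmosomes, went from 8.74, 9.21 and 9.43 in growth to 7.19, 6.11 and 6.94 at day 4 and to 11.05 and 11.12 at day 6. It was 3.89-fold above growth and 20.2-fold above day 4. Dsg2 and Dsc2, the desmosomal cadherins, rose 4.48-fold and 6.30-fold over growth. Probe sets of keratins can bind related transcripts.

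**Figure D4:**
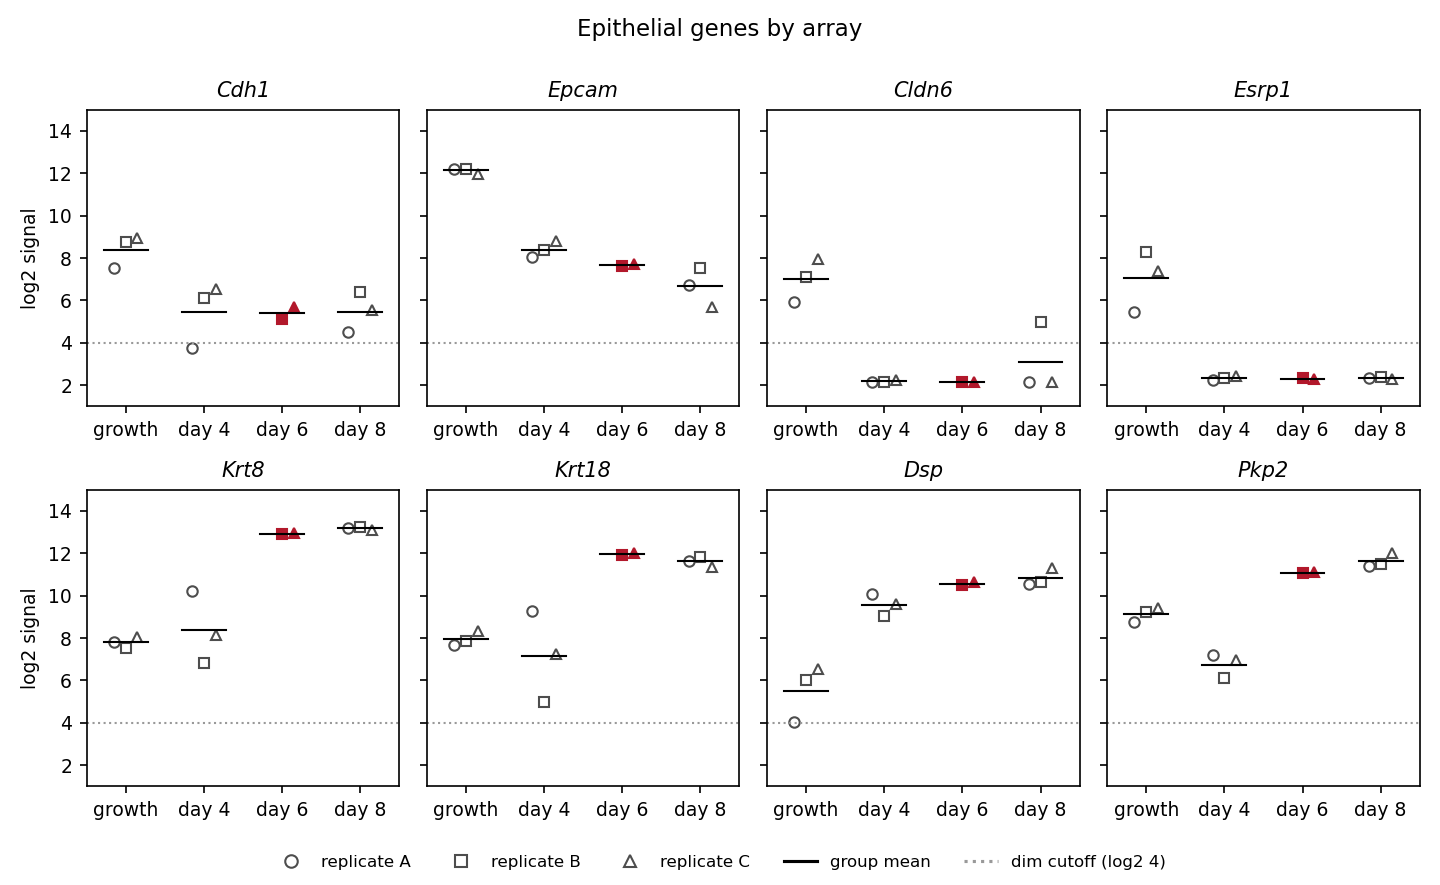
Log2 intensity on each array (points) in growth cells and at days 4, 6 and 8 of DMSO for epithelial genes that were lower and for keratin and desmosome genes that were higher at day 6 than in growth, with a bar for the group mean, day 6 in red and a dotted line at 4, below which values are dim. Epcam, Cldn6 and Esrp1 are low from day 4 on, whereas Krt8, Krt18 and Pkp2 reach their high level between day 4 and day 6.

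Many transcription factors of heart progenitors and lateral plate mesoderm rose. Of 40 tested members 20 were higher and 2 lower at day 6, with a median of 1.31 log2. The 2 lower were heart field factors, Tbx1 (mean 4.77 in growth and 1.83 at day 6) and Foxh1 (-1.59 log2). Heart field factors that were not called included Nkx2-5, Tbx5, Tbx2, Foxc1, Hopx and Myocd. The lower count was 1 without any single growth or day 6 array. Tbx20, a T-box factor of the heart fields, lay at 2.62, 2.58 and 2.61 in growth, at 7.95, 6.41 and 7.79 at day 4 and at 9.66 and 9.80 at day 6, at least 53.0-fold above growth (limma adjusted p = 8.33e-09). Mef2c, a MADS-box factor of the second heart field and muscle, was dim on all growth and day 4 arrays and lay at 7.48 and 6.28 at day 6, at least 7.36-fold higher. Irx3, an Iroquois homeobox factor, lay at 7.51 and 8.15 at day 6, at least 14.2-fold above growth and 15.1-fold above day 4. Smarcd3, the heart subunit Baf60c of the SWI/SNF remodelling complex, rose from 2.58, 2.81 and 4.41 to 10.25 and 10.12. With 2 of its 3 growth arrays dim, the difference was 6.92 log2 as listed and 6.05 log2 with values under 4 set to 4. Gata4 lay at 7.32 and 7.61 against 3.05 to 3.55 in growth, where it was dim, a difference of at least 3.46 log2, and Gata6, dim on 2 of the 3 growth arrays, rose 38.0-fold.

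Of 15 tested factors of the wider lateral plate 7 rose. Msx1 and Msx2, homeobox factors that respond to BMP, lay near 10 at day 6, at 9.76 and 9.89 and at 10.23 and 9.86. Msx1 rose at least 56.7-fold. Msx2, dim on 2 of the 3 growth arrays, rose by 6.01 log2 with values under 4 set to 4. Foxf1, a forkhead factor of splanchnic mesoderm, lay at 7.70 and 7.84, at least 13.6-fold above growth, and Meis2 rose at least 10.2-fold. Hand2, the partner of Hand1, lay at 3.51, 3.42 and 2.62 in growth and at 7.18 and 6.33 at day 6, at least 6.74-fold higher. From day 4 to day 6, 9 of the 40 were higher and 1 lower, and the lower count was 0 to 3 without 1 array (0 without day 6 replicate C, 3 without day 4 replicate B, 2 without day 8 replicate A).

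The heart field factors Nkx2-5 and Tbx5 were still dim, and the filament genes of differentiated heart muscle largely so. Nkx2-5 lay at 2.35 and 2.38 at day 6 and Tbx5 at 2.21 and 2.18, both beside dim growth values. Of 26 tested sarcomere genes 5 rose and 2 fell, with a median of 0.03 log2, so the share of higher members was 5 of 26 against 14.0% over all genes. Tnni1, the slow troponin I of embryonic heart, lay at 2.92, 2.73 and 2.26 in growth, at 6.04, 4.76 and 5.60 at day 4 and at 9.38 and 9.20 at day 6, at least 39.2-fold above growth. Tnnt2, cardiac troponin T, was dim in growth and at day 4 and lay at 6.21 and 5.60 at day 6, at least 3.74-fold higher (limma adjusted p = 0.0139 on the values as listed). With values under 4 set to 4, its difference from growth was 1.90 log2 and the call was lost (limma adjusted p = 0.0970). Tnnt2 lost its call without day 6 replicate B (adjusted p = 0.0984). Tpm1 rose 2.93-fold, a call lost by the mean of its probe sets (0.89 log2), and Nebl and Ankrd1 were called at or near the dim limit. Actc1 and Myh6, cardiac actin and a myosin heavy chain, were dim on every growth and day 6 array. Tnnt1, the slow skeletal troponin T, lay at 9.46, 9.55 and 9.82 in growth and was dim at day 6, at least 48.9-fold lower. Without day 6 replicate B, 3 sarcomere genes were called higher.

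Markers of other cell types were mostly dim at day 6. Over 12 endothelial markers, the mean log2 value was 2.91 to 3.11 in growth and 3.10 to 3.15 at day 6, with only Flt1 and Kdr above 4. Over 11 blood markers it was 2.72 to 2.79 and 2.88 to 3.13, and over 12 endoderm markers 2.57 to 2.63 and 2.81 to 2.94. Of the blood markers Lmo2 (5.32 and 5.37, against 3.52 to 3.92 in growth) and Runx1 (4.25 and 4.21, against 4.13 to 4.24) were above 4 at day 6, and of the endoderm markers Ttr (5.15 and 6.45, against 2.86 to 2.90), and none of these was called. Over 8 epicardial markers it was 2.56 to 2.60 and 2.75 to 3.10, with Upk3b (3.12 and 5.23) and Wt1 (3.33 and 4.15) above 4 on day 6 replicate C only. Over 8 smooth muscle markers it was 3.71 to 4.01 and 3.96 to 4.22, and over 8 skeletal muscle markers 2.99 to 3.13 and 2.72 to 2.75. Over 11 neural markers it was 4.75 to 4.82 in growth and 3.69 to 3.72 at day 6, where Otx2, Tubb3 and Zic1 were above 4 on both arrays and Nes (3.73 and 4.61) on replicate C only. Of the 8 smooth muscle markers 5 were above 4 on some growth array and 3 at day 6. The 3 were Acta2, Tagln (5.27 and 5.41, against 4.06 to 4.96 in growth) and Smtn (4.31 and 5.08, against 4.30 to 5.40). Tagln and Smtn were not called. Of 31 tested genes of these lists 2 rose and 6 fell (6.45% and 19.4%, against 14.0% and 12.9% over all tested genes). Kdr, the VEGF receptor also present on early mesoderm, lay at 5.31 and 5.28 at day 6, at least 2.45-fold above growth and 12.0-fold below day 4. Acta2 was called 8.09-fold higher, but its probe set can bind other actins, and by its remaining probe sets the difference was 0.11 log2. Its call was also lost without growth replicate C or either day 6 array. Flt1, a VEGF receptor, fell 5.53-fold, and Otx2, a homeobox factor of the anterior epiblast and brain, fell 101-fold, from 11.06, 10.30 and 10.69 to 4.04 and 4.02.

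The BMP and TGF-beta pathway was raised at the level of ligands, inhibitors and targets together. Of 38 tested members 22 were higher and 3 lower than in growth, with a median of 1.49 log2. Of 9 ligands 6 were higher and 2 lower, of 8 antagonists 6 were higher, and of 7 target genes 6 higher and 1 lower. Bmp4 lay at 4.48, 5.28 and 4.85 in growth and at 11.27 and 11.23 at day 6, 83.4-fold higher (limma adjusted p = 1.36e-08). Bmp2, which patterns the heart field, lay at 2.71, 2.70 and 1.99 against 8.79 and 8.81, at least 27.8-fold higher and 3.69-fold above day 4. Bmp5 was dim in growth, spread from 2.78 to 7.50 at day 4 and lay at 9.38 and 8.86 at day 6, at least 34.7-fold above growth. Bmp7 rose at least 6.28-fold and Tgfb2, the TGF-beta of the heart cushions, 7.23-fold.

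Most target genes were higher as well. Id1, an inhibitor of helix-loop-helix factors and a direct BMP target, lay at 5.88, 3.61 and 6.22 in growth and at 11.29 and 11.15 at day 6, 63.4-fold higher. Id2 rose 60.9-fold, Id3 4.63-fold and Id4 8.41-fold. The inhibitors Smad6, which blocks BMP receptors from inside the cell, and Bambi, a decoy receptor, rose 51.0-fold and 36.0-fold. Smad6 lay at 4.57, 4.21 and 4.40 against 10.14 and 9.99. Nog, the secreted BMP antagonist noggin, was dim in growth and at day 4 and lay at 5.69 and 6.16 at day 6, at least 3.79-fold higher. Bmper, another secreted BMP regulator, was at least 3.86-fold above growth but 5.27-fold below day 4. Of the signal transducers, Smad2 rose 2.87-fold and Smad3 4.07-fold. The fall of Bmper and the rises of Bmp5, Nog and Smad6 from day 4 each lost their call without either day 6 array, at adjusted p 0.0627 to 0.157.

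Wnt pathway genes rose in several roles. Of 38 tested members 15 were higher and 4 lower than in growth, with a median of 0.65 log2. Higher were 7 of 8 target genes, 3 of 10 ligands, 4 of 14 receptors and 1 of 6 antagonists, against 14.0% of all tested genes. Lower were 3 of the 14 receptors and 1 of the 6 antagonists, against 12.9% of all tested genes. Among the higher ligands, Wnt5b differed by only 0.27 log2 by probe sets not prone to bind related sequences (limma adjusted p = 0.640). Axin2, the feedback inhibitor that reads out beta-catenin, lay at 6.17, 5.80 and 5.74 in growth, at 9.81, 10.00 and 10.29 at day 4 and at 8.50 and 8.66 at day 6, 6.40-fold above growth (limma adjusted p = 0.000998). Its day 6 arrays were above growth and below all day 4 arrays, but the difference from day 4 did not pass the test (2.73-fold, adjusted p = 0.121). Lef1, a partner of beta-catenin, rose 6.32-fold over growth and Nkd1 6.14-fold. Wnt5a, a ligand of the non-canonical branch, lay at 3.61, 4.06 and 3.36 against 9.31 and 9.41, 51.3-fold higher, and Rspo3, which amplifies Wnt signals, rose 25.0-fold. Among the receptors, Fzd4 rose by 2.62 log2 over growth and by 3.70 log2 over day 4, while Fzd5 fell 8.86-fold. The lower count of this list lay between 2 and 5 without 1 array, with Lrp5 and Sfrp2 the named members that lost their call.

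FGF pathway genes changed in both directions, 5 higher and 6 lower of 19, with a median of 0.36 log2. These shares, 26.3% higher and 31.6% lower, stand beside 14.0% and 12.9% over all tested genes. With values under 4 set to 4, Fgf17, called higher, differed by 0 log2 and Fgf5, called lower, by -0.57 log2. Both lost their call in that setting. The higher call of Spry1 was lost without growth replicate C or day 6 replicate C. Ligands of pluripotent cells fell. Fgf4 lay at 5.93, 6.74 and 6.84 in growth and Fgf15 at 6.84, 6.68 and 7.20, and both were dim at day 6. Of 3 receptors 2 rose. Fgfr2 lay at 5.32, 4.87 and 5.04 in growth, at 5.14, 5.51 and 4.91 at day 4 and at 7.93 and 8.13 at day 6, 7.75-fold and 7.17-fold higher than each (limma adjusted p = 6.92e-06 and 8.03e-05). Fgfr3 was dim on all growth and day 4 arrays and lay at 7.51 and 7.85, at least 12.8-fold higher than either. Neither receptor's day 6 arrays overlapped with the earlier groups. Of the genes that respond to FGF and ERK signalling, Etv5 fell 6.23-fold, Etv4 at least 4.55-fold and Spry4 3.26-fold, while Dusp4, a phosphatase of ERK, rose 6.54-fold. Spry4 was also 5.34-fold below day 4. Fgf8, a streak ligand, was at least 15.1-fold below day 4 and dim at day 6. Of 13 retinoic acid genes 3 were higher (Cyp26a1, Crabp1 and Crabp2) and 1 lower. The last, the receptor Rara, lost its call without growth replicate A or C or day 6 replicate B (adjusted p up to 0.296).

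Hox genes, which give mesoderm its position along the body axis, had members called higher in each of the 4 clusters. These were 2 of 5 tested genes in cluster A, 4 of 6 in B, 3 of 4 in C and 4 of 5 in D. With values under 4 set to 4, Hoxa10, Hoxb4 and Hoxc10 differed by only 0.12, 0.91 and 0.996 log2 and lost their call. Of the 2 genes of cluster A, only Hoxa9 was thus clear of the dim limit. Of 20 tested members 13 were higher and 0 lower than in growth, with a median of 2.55 log2, and another 13 on the array were too dim to test. At an unadjusted limma p under 0.05, 17 were higher and 0 lower. Hoxb2 lay at 1.55, 1.59 and 1.82 in growth, at 7.85, 8.82 and 8.60 at day 4 and at 8.90 and 8.70 at day 6, at least 27.8-fold above growth (limma adjusted p = 8.91e-10). Hoxa9 lay at 5.30, 3.42 and 3.24 at day 4 and at 8.86 and 8.67 at day 6, at least 27.3-fold above growth and 27.5-fold above day 4. Hoxc8 lay at 4.37, 2.77 and 2.75 at day 4 and at 7.28 and 7.15 at day 6, 15.1-fold above day 4 by the values as listed. Day 4 replicates B and C were dim for Hoxc8, so that fold would be smaller with dim values set to 4. For Hoxa9 and Hoxc8 day 4 replicate A was the highest of its day and still below both day 6 arrays.

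The day 4 values differed between genes. Hoxd9 stood at 10.10, 10.21 and 10.57 at day 4 and at a mean of 8.96 ± 0.05 (SD, n = 2) at day 6, 63.3-fold above growth, where 2 of 3 arrays were dim, and its change from day 4 did not pass the test. Hoxd8 lay at 7.90 and 8.69 at day 6, at least 19.6-fold above growth. Hoxb3 rose 14.2-fold over growth and 6.01-fold over day 4. Hoxb1, of the most 3′ group, was at 3.81, 9.29 and 8.58 at day 4 and dim at day 6, at least 9.35-fold lower, and Hoxa3 also fell from day 4. Hoxc10 lay at 4.04 and 5.95 at day 6 and Hoxc4 at 6.31 and 4.74, wide spreads between replicates. The rises of Hoxc4 and Hoxd10 from day 4 lost their call without day 6 replicate B, and that of Hoxd10 also without replicate C (adjusted p 0.0951 to 0.145). Hoxa10 was called at values of 4.23 and 3.46, at the dim limit with 1 of the 2 below it, and lost its call without each growth array and without day 6 replicate B (adjusted p 0.0554 to 0.241). From day 4 to day 6, 6 Hox genes were higher and 2 lower, and without 1 array the lower count was 0 to 3.

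**Figure D5:**
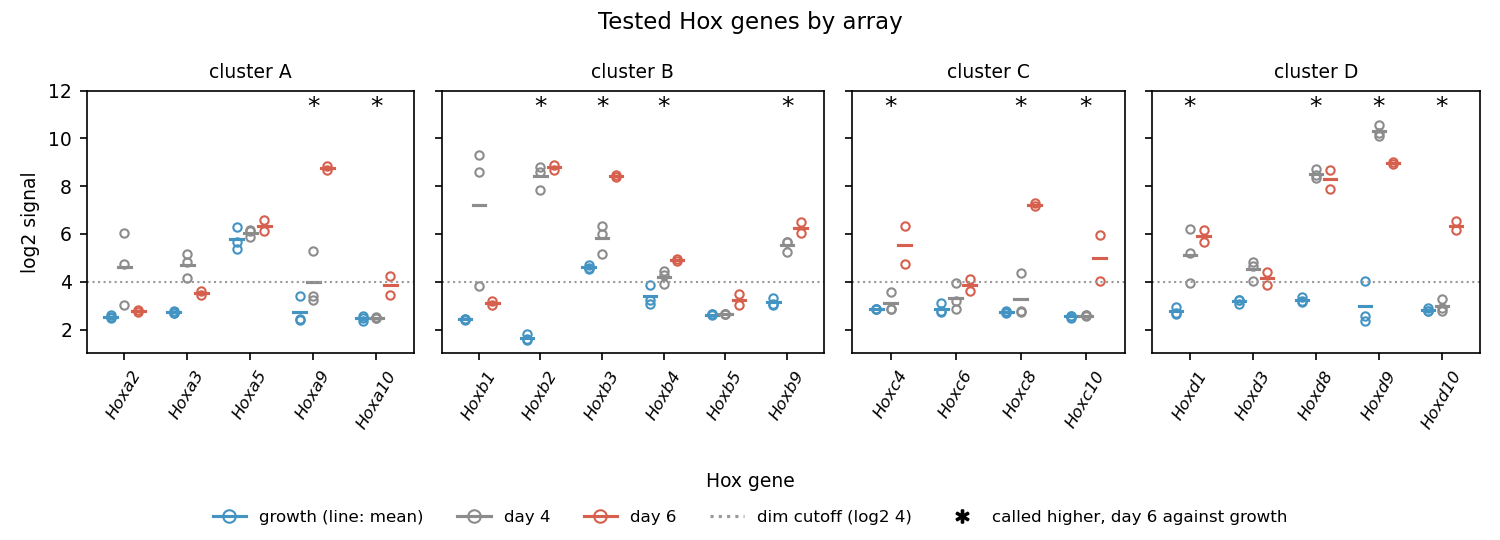
Log2 intensity on each array (circles, with a bar for the group mean) of the 20 tested Hox genes by cluster, in growth cells and at days 4 and 6 of DMSO, with a dotted line at 4, below which values are dim, and a star over the 13 genes called higher at day 6 than in growth. Hoxb2, Hoxd8 and Hoxd9 are already high at day 4, and Hoxa9, Hoxc8 and Hoxd10 become so at day 6.

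Igf2 belongs both to the insulin-like growth factor axis and to the imprinted genes, which are expressed from 1 parental copy. Of 13 tested genes of the insulin-like growth factor axis 6 rose over growth and 0 fell, with a median of 0.13 log2 (6 and 1 at an unadjusted limma p under 0.05). Igf2r, which carries Igf2 to lysosomes, lay at 6.84, 7.12 and 7.24 in growth and at 10.64 and 11.03 at day 6, 13.6-fold higher and 4.04-fold above day 4. Igf1r, the signalling receptor, rose 2.83-fold, a call lost by the mean of its probe sets (0.85 log2), and Igfbp4, a binding protein, rose 13.3-fold. Igfbp5 was listed as dim in growth and at 8.04 and 8.11 at day 6, at least 16.8-fold higher, but by probe sets not prone to bind related sequences the difference was 0.26 log2 (adjusted p = 0.741).

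Of 21 tested imprinted genes 12 rose and 3 fell, with a median of 1.05 log2. Among those expressed from the paternal copy, 9 of 12 were higher and 2 lower, and among those from the maternal copy 3 of 9 were higher and 1 lower. Dlk1, a transmembrane protein of the Notch ligand type, was dim in growth and at day 4 and lay at 7.81 and 8.38 at day 6, at least 17.1-fold higher (limma adjusted p = 0.000192). Mest lay at 12.13, 11.90 and 11.95 in growth, at 10.32, 8.43 and 9.19 at day 4 and at 12.98 and 13.01 at day 6, so it was 12.8-fold above day 4 but only 2.00-fold above growth. Peg3 rose 5.23-fold, Ndn 7.33-fold and Peg10 11.6-fold. Phlda2, a growth-restraining gene of the maternal copy, rose 14.1-fold. Asb4, a substrate adaptor of ubiquitin ligases, lay at 2.51, 2.61 and 2.36 in growth, at 12.01, 12.70 and 12.48 at day 4 and at 8.26 and 8.11 at day 6, at least 18.1-fold above growth and 18.6-fold below day 4. Magel2 fell 7.36-fold and Snrpn at least 2.97-fold. The lower call of Grb10 was lost without day 6 replicate C (adjusted p = 0.0672).

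Enzymes of DNA methylation and Polycomb subunits were lower in 7 and higher in 3 of 16 tested cases, with a median of -0.38 log2. Dnmt3b, a de novo methyltransferase, lay at 12.13, 12.31 and 12.58 in growth and at 9.49 and 9.23 at day 6, 7.87-fold lower. Dnmt3a fell 3.99-fold, and Dnmt3l, their cofactor, became dim. Cbx7, the Polycomb subunit of pluripotent cells, lay at 8.45, 8.43 and 8.51 in growth and was dim at day 6, at least 22.1-fold lower (limma adjusted p = 2.18e-06). Bmi1, a subunit of the same complex, rose 8.16-fold, from 5.57, 6.97 and 6.29 to 9.42 and 9.19. Between day 4 and day 6, 0 of the 16 were called, and 3 had an unadjusted limma p under 0.05, all lower. The count of higher members was 1 without day 6 replicate C.

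Cell cycle genes were lower in 7 and higher in 3 of 34 tested cases, with a median of -0.37 log2. These shares, 20.6% lower and 8.82% higher, stand beside 12.9% lower and 14.0% higher over all tested genes. The lower count ranged from 0 to 14 over the other processing settings, so no general fall of the list is shown. Aurka and Plk1, mitotic kinases, fell 2.82-fold and 2.61-fold. Aurka lay at 11.05, 10.46 and 10.51 in growth and at 9.27 and 9.09 at day 6. Cyclins of the G1 phase changed in both directions. Ccne1 fell 3.25-fold while Ccne2 rose 5.45-fold, from 4.93, 5.94 and 5.63 to 8.19 and 7.70, and Ccnd2 rose 4.34-fold. Between day 4 and day 6, 0 of the 34 were called, and 1 had an unadjusted limma p under 0.05.

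Axon guidance genes, which also steer migrating mesoderm and vessels, were higher in 16 and lower in 0 of 33 tested cases, with a median of 1.06 log2 (17 and 0 at an unadjusted limma p under 0.05). Slit2 and Slit3, secreted ligands of Robo receptors, rose 17.6-fold and at least 18.1-fold. Slit3 lay at 3.41, 3.38 and 3.37 in growth and at 8.11 and 8.24 at day 6. Unc5c, a netrin receptor, lay at 5.63, 3.23 and 5.36 at day 4 and at 8.77 and 8.49 at day 6, at least 24.7-fold above growth and 14.8-fold above day 4 (limma adjusted p = 0.000304). Sema5a rose at least 19.4-fold and Efna1, an ephrin ligand, 18.7-fold. Efnb2, a transmembrane ephrin, rose 10.2-fold over growth, and its rise of 4.79-fold from day 4 lost its call without day 6 replicate B or C (adjusted p = 0.0776 and 0.108). From day 4 to day 6, 2 members were higher and 5 lower, and without 1 array the lower count was 0 to 6.

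The largest changes included genes outside these lists. Prdm6, a transcriptional repressor of the PR domain family, lay at 3.02, 2.66 and 3.13 in growth and at 9.91 and 10.34 at day 6, at least 69.7-fold higher with an adjusted p of 1.29e-10 by limma. Stard8, a protein with a lipid transfer domain, rose at least 137-fold, Cited2, a CBP and p300 interactor, 91.5-fold and Mex3b, an RNA-binding protein, at least 65.2-fold. Cited1, of the Cited2 family, moved the other way. It lay at 12.97, 13.03 and 12.83 in growth and at 7.38 and 6.57 at day 6, 62.6-fold lower. Gng3, a G protein gamma subunit, fell 111-fold, and Pim2, a serine/threonine kinase, fell 88.2-fold with day 6 values of 4.92 and 6.52. Enpp3, an ectoenzyme that cleaves nucleotides, lay at 9.32, 10.01 and 10.71 in growth and was dim at day 6, at least 64.6-fold lower. Npy, neuropeptide Y, fell 45.5-fold and Bst2, the membrane protein tetherin, 32.9-fold.

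Among genes that rose between day 4 and day 6, Myrf and Ddah1 had day 4 values below those of growth. Myrf, a membrane-bound transcription factor, lay at 7.80, 6.20 and 7.16 in growth, at 3.63, 4.12 and 3.38 at day 4 and at 8.54 and 9.02 at day 6. It was 33.5-fold above day 4 and 3.29-fold above growth, and the latter call was lost without day 6 replicate C (adjusted p = 0.0726). Ddah1, which degrades methylated arginines, lay at 3.94, 5.90 and 5.54, then at 3.79, 1.81 and 3.01, and then at 9.10 and 8.77. Tmem108, a transmembrane protein, lay at 9.04 and 9.48 at day 6, 54.0-fold above day 4 (limma adjusted p = 2.29e-07). Some but not all day 4 arrays were dim for Tmem108, so that fold rests on the values as listed and would be smaller with dim values set to 4. Rbms3, an RNA-binding protein, was 31.6-fold above day 4, with day 6 values of 9.25 and 9.14.

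Few genes passed the test between day 6 and day 8, where the arrays of day 8 were unlike each other. Only 2 of the 10802 genes were called (0.0185%), Irf1 and Evx1, both lower at day 8, while 1237 genes had an unadjusted p under 0.05. Evx1 lost its call without day 8 replicate B or C (limma adjusted p = 0.0970 and 0.162). It also lost it with values under 4 set to 4, where the difference was -0.47 log2. With a lone day 6 array, Evx1 lost its call without replicate C (-1.54 log2) and Irf1 without replicate B (-1.50 log2). With only the arrays of these days fitted, neither gene was called (limma adjusted p = 0.560 for both). Irf1, an interferon-regulated factor, lay at 7.89 and 7.68 at day 6 and at 6.50, 6.06 and 6.00 at day 8. Day 8 replicate A correlated at 0.990 to 0.992 with the day 6 arrays, as closely as these with each other (0.992), against 0.949 to 0.965 for replicates B and C. Tnnt2 shows the split, with 6.03 on day 8 replicate A and 8.90 and 10.77 on B and C, beside 6.21 and 5.60 at day 6. Without day 8 replicate A, 613 genes were called, 404 higher and 209 lower at day 8. Among them were 18 of 26 sarcomere genes, all higher, and 1 mesenchymal gene, also higher. The change was not limited to sarcomere genes. That fit also called 17 extracellular matrix genes and 11 genes of other cell types higher, and 0 of either list lower. Of the progenitor and mesoderm factors 7 were higher and 5 lower, and of the streak genes 1 was higher and 7 were lower. Snai2, Igf2 and Cdh11 were not called between day 6 and day 8 with all arrays.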

How the data were processed

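RNA of 16 P19CL6 cultures was measured on Affymetrix mouse arrays, 1 array per culture, and 5 of these arrays, 3 growth and 2 at day 6 of DMSO, enter the main comparison. The deposited values come from GCRMA, per the submitters' processing notes, and were read as log2 intensities from their range, since the sources used here state no scale. GCRMA subtracts background by probe sequence, normalizes arrays to each other and summarizes each probe set, so changes in the total amount of RNA per cell are not visible.

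Of 45101 probe sets, 34945 named a single gene (18193 genes), 932 named several, 9160 had no gene name and 64 were controls. Entrez identifiers of 34741 were found in the RefSeq table. Probe sets at or above log2 4 on at least 2 arrays were kept (18970), and for each gene the probe set with the highest mean, which left 10802 genes. limma 3.58.1 (R 4.3.3; lmFit, eBayes) estimated a mean for each of the groups from all 16 arrays together, with 10 residual and 3.53 prior degrees of freedom and no block for replicate letters, and p-values were adjusted by Benjamini-Hochberg over all genes. The median standard error of a day 6 minus growth difference was 0.25 log2. The number of arrays limits the precision. The procedure was tested on simulated data.

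The members and lists were chosen with earlier results of these data known. Genes are named by a rule: the largest non-overlapping rises and falls, up to 5 called members per role of a list, the markers, a set of reference genes and the genes most like the markers. A few list members outside the rule, such as Pkp2, Dsg2, Dsc2, Crb3, Mest, Gata6, Hand2, Irx3, Has2, Cd44, Pdgfrb, Axl, Lin28a, Nodal, Peg3, Id3, Plk1, Tgfb2, Fgf8, Hoxb1, Hoxa3, Col3a1, Col1a2 and Snrpn, were chosen after their values were seen. Alternatives covered the dim filter, normalization, the choice of probe set, thresholds, weights, the block and each array left out.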

Additional observations from a re-analysis of the deposited data

Results flagged for a closer look

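Of the probe sets that the comparisons did not use because no gene name was available for them, 1685 passed the dim filter. Of these, 194 were higher and 130 lower at day 6 than in growth. Both shares lie below the 14.0% higher and 12.9% lower over all tested genes. The 3 unnamed probe sets with the largest rises carried a signal far above growth. Probe set 1460084_at rose by 8.61 log2 units, from 2.84, 3.20 and 2.95 in growth to 11.57 and 11.63 at day 6, at least 194-fold. Probe set 1443913_at differed by 7.53 log2 units, from 3.34, 3.75 and 4.30 to 11.33 and 11.33, 185-fold. Probe set 1420565_at differed by 6.29 log2 units, from 2.59, 2.56 and 2.57 to 8.73 and 8.99, at least 29.1-fold. The growth and day 6 arrays did not overlap for any of the 3. Of 535 probe sets that name several genes, 54 were higher and 52 lower, also below the shares over all tested genes.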

How the results depend on the processing

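The count of 2898 genes called between day 6 and growth became 4655 with all single-gene probe sets tested, 4667 with no minimum difference and 1009 at a difference of at least 2 log2. It lay between 2541 and 2946 when 1 array was left out, where a lone day 6 array was assumed to vary like the other groups. Quantile normalization again gave 2927, with 47.6% of them higher instead of 52.0%. The count of 662 between day 6 and day 4 became 415 with only those groups fitted, 397 at an adjusted p under 0.01 and 284 at a difference of at least 2 log2, and lay between 309 (without day 6 replicate C) and 799 (without day 4 replicate A) with 1 array left out. The count of 2 between day 8 and day 6 became 1 with no dim filter, 9 with quantile normalization again, 1 with scaling to a common median, 4 with values under 4 set to 4, 752 with array weights, 0 with only those groups fitted, 4 with all single-gene probe sets, 1 at an adjusted p under 0.01 and 0 at a difference of at least 2 log2, and lay between 1 and 613 with 1 array left out (613 without day 8 replicate A). The cause of these shifts was not tested. Of 202 named and tested genes, 194 were called between day 6 and growth. Of these 50 lost the call in at least 1 alternative, 21 of them with 1 array left out, and 0 changed direction.

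Replicate letters are shared between groups, but only 2 letters, B and C, occur at day 6. Deviations of same-lettered arrays from their group means correlated at 0.14 (B) and 0.16 (C) between growth and day 6, at 0.18 and 0.23 between days 4 and 6, and at -0.14 and -0.08 between days 6 and 8. With the letter as a replicate block, 2846 genes were called between day 6 and growth (2983 with only those groups fitted), 677 (666) between days 6 and 4, and 14 (0) between days 8 and 6. With that block and only days 4 and 6 fitted, Hand1 (adjusted p = 0.0624), Isl1 (0.0809) and Unc5c (0.0687) lost their call from day 4.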

Other observations

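Among the genes called between day 6 and growth, 1303 had several probe sets past the dim filter. For 4 of them, AU022252, Cflar, Rimklb and Zwint, another probe set was called in the opposite direction, so no direction is given for these genes.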
